A study of Mus musculus with 4 samples.

Results

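Cytosolic ribosomal protein genes encode the proteins of the large (Rpl) and small (Rps) subunits of the cytosolic ribosome. They were followed in 4 clones of c17.2, a mouse neural stem cell line. Members were chosen by name: every probe set annotated with a single gene symbol that starts with Rpl or Rps and a digit, and Rplp0, Rplp1, Rplp2 and Rpsa where a probe set carried that symbol alone. Ribosomal protein kinases, the Rps19 binding protein and pseudogenes were left out. This gave 49 of 12403 gene probe sets, for 35 genes. The rule uses names only, though the members were chosen with earlier results of these data known. Another 39 probe sets carry a ribosomal protein symbol together with other symbols, mostly pseudogenes, and are treated separately.

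The arrays held total RNA of 2 lines transfected stably with Nurr1 (clone 42 and clone 48) and 2 lines transfected with the empty puromycin vector (puroB and puroD). All were derived from the same immortalised neural stem cell line, carried a puromycin selection and were kept proliferating. Nurr1, encoded by Nr4a2, is an orphan nuclear receptor needed by midbrain dopaminergic neurons. By like rate of proliferation, clone 42 forms a pair with puroB and clone 48 a pair with puroD. The descriptions of all 4 samples give these pairs, while the design text writes the number 42 in the second pair too and abbreviates it c48. Each line was a single clone on a single array, so the 2 clones of a group are its replicates and differences between clones are part of every comparison. Neither the promoter that drives Nurr1 nor the passage number is given in the labels.

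Each ribosome carries a copy of most of these proteins on its ribosomal RNA, and proliferating cells devote a large part of their transcription and translation to them. Their mRNAs are abundant, and vertebrate ribosomal protein mRNAs typically begin with a C followed by a run of pyrimidines, the 5′ terminal oligopyrimidine (TOP) motif. Through it their translation is held under the mTOR pathway. Processed pseudogenes of these genes are common in the mouse genome, so a probe set annotated to 1 gene may also bind RNA of near-identical copies.

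The start sites of the genes are shown first because this motif is the sequence feature the family is best known for. RefSeq promoter windows of assembly GRCm38.p6, 250 bases before to 50 bases after each annotated start, matched 28 of the 35 genes. In 5 of these genes (17.9%) an annotated start was a C followed by at least 4 letters C or T on the transcribed strand, against 813 of 27025 genes (3.01%) in the whole table. Annotated starts can lie some bases away from the true start, so the count covers only these windows. The 5 genes are Rpl35a (chr16:33056442-33056501, plus strand), Rpl38 (chr11:114668540-114668599, plus strand), Rps10 (chr17:27635225-27635284, minus strand), Rps18 (chr17:33955646-33955705, minus strand) and Rps27 (chr3:90213629-90213688, minus strand). Each stretch runs 5′ to 3′ from 40 bases before the start to 20 bases from it on, and capitals mark the C at the start with the C and T letters that follow it.
Rpl35a: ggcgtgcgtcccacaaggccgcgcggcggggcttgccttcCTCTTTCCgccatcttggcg
Rpl38: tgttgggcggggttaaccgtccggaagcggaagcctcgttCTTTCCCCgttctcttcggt
Rps10: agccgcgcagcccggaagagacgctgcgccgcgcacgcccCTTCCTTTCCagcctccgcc
Rps18: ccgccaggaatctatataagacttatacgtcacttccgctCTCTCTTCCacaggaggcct
Rps27: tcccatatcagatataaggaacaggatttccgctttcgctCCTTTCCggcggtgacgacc

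Other letters were searched on both strands of the same windows, and none of these motifs contains another. The core of Ets family sites, CCGGAAG, was in 12 of the 28 genes (42.9%) and in 9.93% of all genes. The GC box GGGCGG was in 17 (60.7%) and in 38.2% of all genes. The YY1 core ATGGCGG was in 6 (21.4%) and in 4.69% of all genes. The E box CACGTG was in 3 (10.7%) and in 8.09%, and the TATA box TATAAA in 4 (14.3%) and in 15.7%. These matches describe the letters of the windows only.

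Median signals over all probe sets lay between 125 and 160 on the 4 arrays after each array was scaled to a trimmed mean of 500. The highest control for a transcript that was not spiked in lay between 40.9 and 62.6. The ratio of 3′ to 5′ actin signal was 1.68 and 2.41 in clones 42 and 48, against 1.51 and 2.0 in puroB and puroD. Of 7 neural stem and progenitor genes on the arrays, Nes, Msi1, Notch1 and Fabp7 lay above that control level on every array, whereas Vim, Pax6 and Prom1 did not. The Nr4a2 probe set 92248_at had signals of 320 and 206 in clones 42 and 48, against 485 and 254 in puroB and puroD. At the other, 92249_g_at, they were 188 and 113, against 372 and 213. Whether these probe sets detect the transfected copy was not tested. Because neither signal was higher than in the matched control, the first 2 lines are called Nurr1-labelled clones. Each direction is that of the labels.

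Of the 49 member probe sets, 28 passed the filter on low signals (above 145, the median of all values, on at least 2 arrays) and were tested. They stand for 24 genes, 12 of each subunit. The other 21 had signals between 2.0 and 283, and 11 genes had no tested probe set: Rpl32, Rpl35a, Rpl38, Rpl39, Rpl39l, Rps13, Rps14, Rps15, Rps20, Rps27l and Rps4l. Of all 49, 29 lay above the highest control that was not spiked in on every array, 11 on some arrays and 9 on none. Since ribosomal protein mRNAs are known to be abundant, a dim probe set is given here as a signal and not as a level of its gene. Rps13, a small subunit protein, was the brightest of them (93027_r_at), with signals of 77.3 and 283 in clones 42 and 48, against 49.0 and 110 in puroB and puroD. Genes with a bright probe set could also have a dim one. Rpl7, a large subunit protein, had signals of 14778 and 11353 in the Nurr1-labelled clones 42 and 48, against 12302 in puroB and 14877 in puroD at 97695_s_at. At 97697_at it had 6.69 and 8.99, against 51.8 and 19.1. Only tested probe sets are compared below.

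Setting the Nurr1-labelled clones against the controls asks whether lines made to overexpress Nurr1 differ in these transcripts from the controls they were matched with. No ribosomal protein probe set passed the test: limma, fitted to all 6419 tested probe sets with the matched pair as a block, called 0 of 28 at an adjusted p under 0.05, against 0.109% of all tested probe sets. At an unadjusted p under 0.05 it also gave 0 of 28, against 7.38% of all. The smallest unadjusted p was 0.320. The median log2 difference of the members, averaged over the pairs, was 0.021, against -0.038 for all tested probe sets, and single members ran from -0.33 to 0.20. The standard errors lay between 0.29 and 0.40, as large as the largest of these differences or nearly so. The sign of the median rested on which clones were used: it was -0.17 without clone 42 and -0.16 without puroB, but 0.15 without clone 48 and 0.14 without puroD, and it was -0.031 with cyclic loess normalization.

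The log2 ratios had opposite signs in the 2 pairs. Of the 28 probe sets, 23 were higher in clone 42 than in puroB and lower in clone 48 than in puroD, against 23.3% of all tested probe sets. In clone 42 over puroB the median log2 ratio was 0.26 (1.20-fold), and 23 were higher, against 45% of all. In clone 48 over puroD the median was -0.33 (0.794-fold), and 26 were lower, against 53% of all. No member was higher in both pairs, against 21.7% of all, and 3 were lower in both, against 29.7%. In all tested probe sets the medians were -0.060 and -0.035 in these pairs. Each pair is 1 array against 1, so these are values of the arrays with no test.

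Clones of the same group differed from each other as much as the matched pairs did. Between the control clones, 26 of 28 probe sets were lower in puroB than in puroD, against 43.9% of all, with a median log2 ratio of -0.27. Between the Nurr1-labelled clones, 27 of 28 were higher in clone 42 than in clone 48, against 53.5% of all, with a median of 0.29. The highest signal of a probe set was most often that of clone 42 (13 of 28) or puroD (12), and the lowest that of clone 48 (11) or puroB (15). The arrays most often highest and those most often lowest each included a clone of either kind, so the order did not follow the Nurr1 label. The groups did not overlap in 2 of 28 probe sets, Rpsa and Rps27, against 30.6% of all tested probe sets.

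**Figure D1:**
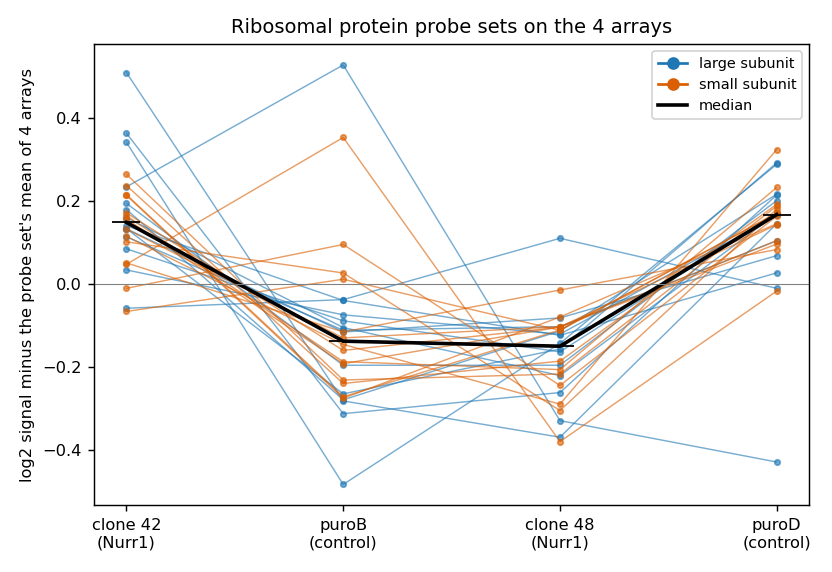
Log2 signal of each tested ribosomal protein probe set minus its mean over the 4 arrays (vertical axis), by clone (horizontal axis, each Nurr1-labelled clone left of its matched control). Thin lines join the points of a probe set, blue for the large and orange for the small subunit, and the black line joins the medians; most of the 28 lines are high in clone 42 and puroD and low in puroB and clone 48.

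The differences were small in fold. By 1.5-fold or more, 3 of 28 were higher in clone 42 than in puroB, against 11.2% of all, and 1 was lower in clone 48 than in puroD, against 11.9%. In puroB over puroD, 1 was lower by that size, against 9.86%, and 1 was higher, against 12.4%. In clone 42 over clone 48, 2 were higher by 1.5-fold, against 16.6%. Members past 1.5-fold were thus no more frequent than in the whole table, while the members largely shared their signs.

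Among large subunit proteins, Rpl10a and Rpl13a had the largest ratios of opposite sign in the 2 pairs. Rpl13a, which is also part of a complex that silences translation of inflammatory mRNAs in interferon-treated cells, had signals of 8573 and 4664 in clones 42 and 48, against 4956 and 6662 in puroB and puroD (92834_at). Clone 42 was above both controls and clone 48 below both, so that the log2 ratio was 0.79 in the pair of clone 42 and -0.51 in the pair of clone 48. The mean was 0.14 ± 0.35 (SE, n = 2 clones per group; limma adjusted p = 0.995).

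Rpl10a, a protein of the L1 stalk beside the exit site of transfer RNA, had 2 tested probe sets of like pattern. At 100711_at the signals were 16379 and 10624 in clones 42 and 48, against 10256 and 14776 in puroB and puroD. At 161327_f_at they were 6691 and 4784, against 3780 and 6451. The log2 ratios were 0.68 and 0.82 in clone 42 over puroB, and -0.48 and -0.43 in clone 48 over puroD. Both probe sets of Rpl10a thus gave the same order, with clone 42 highest and puroB lowest.

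Rpl19, which helps to bridge the subunits, had signals of 19666 and 16059 in clones 42 and 48, against 14315 and 20177 in puroB and puroD (97483_at). The log2 ratios were 0.46 and -0.33 in the pairs. Rpl6 had 14937 and 12873, against 12574 and 14283 (96962_at), with log2 ratios of 0.25 and -0.15. Rpl37a, a zinc-binding protein, had 6212 and 5174, against 5485 and 5743 (93822_at), or 0.18 and -0.15. These 3 shared the signs of Rpl10a with smaller values, as did Rpl41, Rpl7 (97695_s_at), Rpl7a and Rpl8, whose log2 ratios lay between 0.11 and 0.39 in the pair of clone 42 and between -0.40 and -0.21 in the pair of clone 48.

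The acidic stalk of the large subunit, which recruits elongation factors, was represented by Rplp0, often used as a reference gene in PCR. Its signals were 20353 and 17138 in clones 42 and 48, against 18050 and 21610 in puroB and puroD (101213_at). The log2 ratios were 0.17 and -0.33, and -0.26 in puroB over puroD. The array of puroD was highest and that of clone 48 lowest. Rplp1 and Rplp2, the other stalk proteins, gave no probe set by the rule.

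Rpl22 and Rpl7l1 stood apart among large subunit members. Rpl22, a protein that is dispensable for protein synthesis in the mouse but needed for development of alpha-beta T cells, had signals of 1204 and 815 in clones 42 and 48, against 1476 and 761 in puroB and puroD (92857_at). Here puroB was highest, and the log2 ratio was 0.96 in puroB over puroD, -0.29 in clone 42 over puroB and 0.10 in clone 48 over puroD. The dimmer Rpl22 probe set, 92856_at, gave the opposite order of the controls: 170 and 139 in clones 42 and 48, against 129 and 189 in puroB and puroD. Rpl22 is therefore uncertain. Rpl7l1, a paralog of Rpl7 that acts in ribosome assembly, had nearly equal signals of 464 and 521 in clones 42 and 48, against 470 and 479 in puroB and puroD (98138_at).

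Of the 14 small subunit probe sets, 11 were higher in clone 42 than in puroB and lower in clone 48 than in puroD. Rps3, which lies at the mRNA entry channel, had signals of 19240 and 14351 in clones 42 and 48, against 13825 and 18646 in puroB and puroD (101137_at). The log2 ratios were 0.48 and -0.38 in the pairs. Rps18, which lies in the head of the subunit, had 20216 and 14486, against 14343 and 19175 (98333_at), or 0.50 and -0.40. Rps10 had 15656 and 12781, against 11161 and 14934 (99093_at), or 0.49 and -0.22. Rps18 and Rps10 are 2 of the genes whose TOP letters are shown above. In each of these 3 genes the arrays of clone 42 and puroD were above those of clone 48 and puroB.

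Rps7, Rps24 (97696_r_at), Rps3a1 and 2 Rps28 probe sets (100758_at and 98085_f_at) had the same signs. Their log2 ratios lay between 0.26 and 0.49 in clone 42 over puroB and between -0.44 and -0.20 in clone 48 over puroD. Rps4x, the X-linked form of its protein, differed least among these, with 13812 and 13201 in clones 42 and 48, against 12309 and 14124 in puroB and puroD (100780_at), or 0.17 and -0.10. Rps19, which is mutated in the human disorder Diamond-Blackfan anaemia, had 13253 and 10017, against 11067 and 15322 (94068_at). Its log2 ratio of -0.61 in clone 48 over puroD was the lowest among the members, and it was 0.26 in clone 42 over puroB.

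Rpsa, Rps27 and the dimmest Rps28 probe set were the members lower in both pairs. Rpsa, which also occurs at the cell surface as a laminin receptor, had signals of 6141 and 5950 in clones 42 and 48, against 6480 and 7233 in puroB and puroD (97750_at). The mean log2 difference was -0.18 ± 0.31 (SE, n = 2 clones per group; limma adjusted p = 0.989). Rps27, a zinc-finger protein and the remaining TOP gene with a tested probe set, had 719 and 611, against 774 and 811 (96301_at), and the log2 difference averaged -0.26 ± 0.29 (limma adjusted p = 0.967). The Rps28 probe set 98086_r_at had 242 and 180, against 299 and 232, and the log2 difference averaged -0.33 ± 0.32 (limma adjusted p = 0.933). The 2 other, brighter Rps28 probe sets had means of 0.028 and 0.065, so that the probe sets of this gene did not share a direction. Rps29 had 196 and 148, against 186 and 207 (98523_at), and was near-equal in the pair of clone 42.

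Both subunits had like medians, and their difference was not tested. The 14 large subunit probe sets had median log2 ratios of 0.26 in clone 42 over puroB and -0.33 in clone 48 over puroD, and the 14 small subunit probe sets 0.30 and -0.32. In puroB over puroD the medians were -0.27 and -0.30. Of the 28 probe sets, 22 had a mean signal above 3000, a value chosen after the signals were seen, and 21 of these were higher in clone 42 than in puroB and lower in clone 48 than in puroD. Of the 6 dimmer ones 2 were.

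The same order was found in ribosomal protein probe sets that the rule left out and in control probe sets. Of the 34 tested probe sets with a ribosomal protein symbol among several, 29 were higher in clone 42 than in puroB and lower in clone 48 than in puroD. Their medians were 0.33, -0.31 and -0.36 in clone 42 over puroB, clone 48 over puroD and puroB over puroD. The 9 probe sets for the bacterial and phage transcripts bioB, bioC, bioD and cre, which are added to the hybridisation mix and not made by the cells, had medians of 0.66, -0.70 and -0.98 in the same ratios. The 3 bioB probe sets among them had signals of at most 109, and AFFX-BioB-3_at went the other way in clone 42 over puroB (-0.37) and in puroB over puroD (0.041). In the 6 others the ratios lay between 0.36 and 0.76, between -0.92 and -0.60 and between -1.12 and -0.92. One of the cre controls had 5640 and 4370 in clones 42 and 48, against 3614 and 7128 in puroB and puroD. The labels do not give the amounts added. The 99th percentile of all other gene probe sets was 7029 and 6788 in clones 42 and 48, against 6077 and 7199 in puroB and puroD, whereas the 95th percentile was 2762 and 2862, against 2683 and 2774. The 99th percentile moves with the members' order, whereas the 95th percentile does not follow it in clone 48. Apart from AFFX-BioB-3_at, the controls move with that order at low as well as at high signals. The part of these values in it was not tested.

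**Figure D2:**
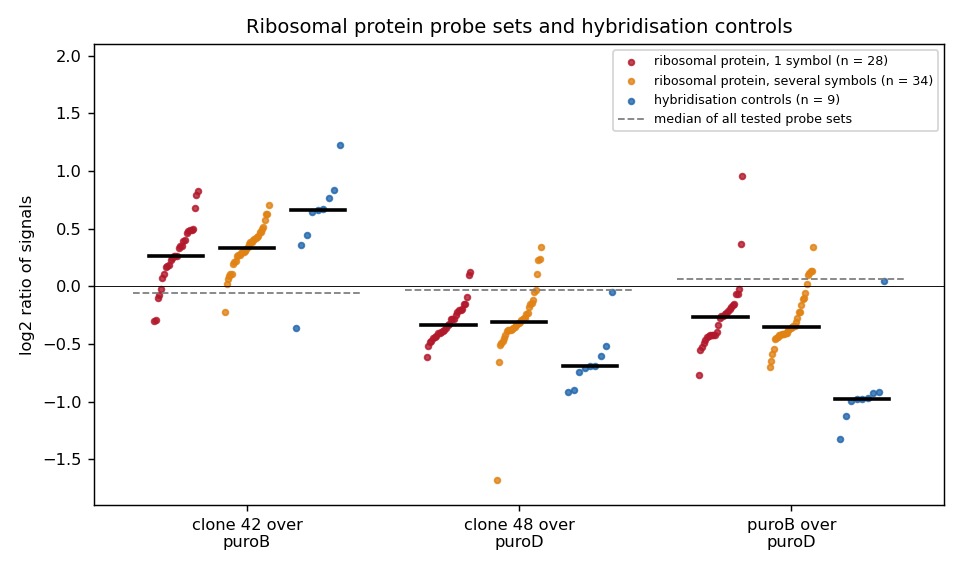
Log2 ratio of signals (vertical axis) in both matched pairs and between the control clones (horizontal axis). Points are the 28 tested ribosomal protein probe sets, the 34 with several symbols and the 9 hybridisation controls, black bars are their medians and dashed lines the median of all tested probe sets; the medians of all 3 kinds are above 0 in clone 42 over puroB and below 0 in the other 2 ratios, by more for the controls.

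**Figure D3:**
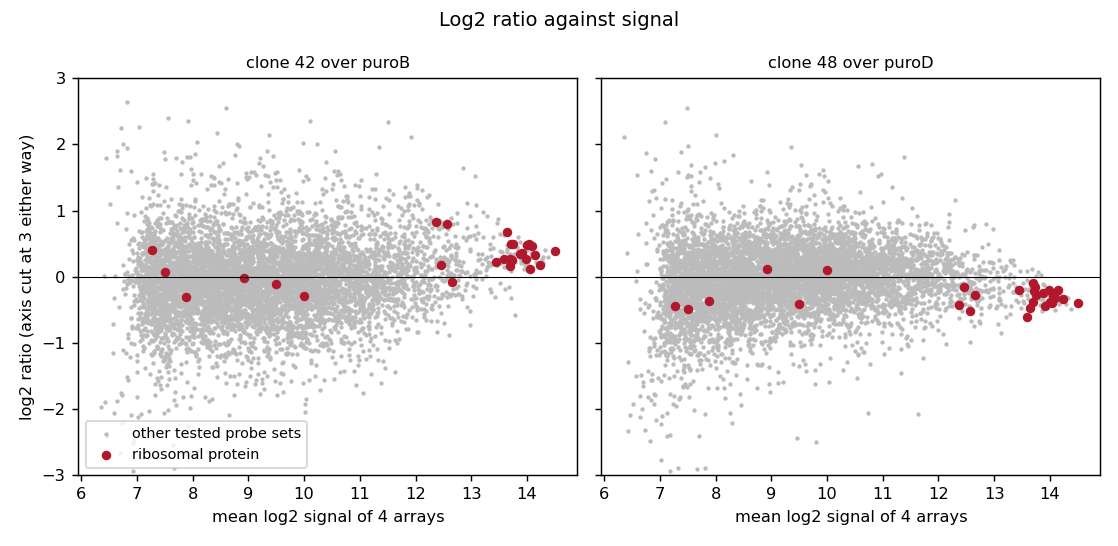
Log2 ratio in each matched pair (vertical axis) against the mean log2 signal over the 4 arrays (horizontal axis) for every tested probe set. Ribosomal protein probe sets, in red, gather at the bright end, mostly above 0 in clone 42 over puroB and below 0 in clone 48 over puroD.

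The scaling of the arrays bears on these values. On each array between 19 and 22 member probe sets were among the 249 brightest, the 2% that the trimmed mean leaves out, so that these members do not enter the scaling factor. Quantile normalization gives each rank the same value on all arrays, so that ratios of members that fill the top ranks are limited by construction. Rpl41, the brightest gene probe set on all 4, becomes equal on all 4. The ratio was also exactly 0 for Rpl7 (97695_s_at) and Rps28 (100758_at) in clone 42 over puroB, and for Rpl19 and Rps3a1 in clone 48 over puroD, so these 5 probe sets cannot enter a count of opposite signs. After it, the median log2 ratio of the members was 0.023 in clone 42 over puroB, -0.083 in clone 48 over puroD and -0.071 in puroB over puroD, and the large subunit median in puroB over puroD changed sign to 0.002. The count of members higher in clone 42 than in puroB and lower in clone 48 than in puroD was 11 of 28, against 23.6% of all tested probe sets. Of 28, 15 were lower in puroB than in puroD, against 48.1%. How much of the lower count comes from this limit on the top ranks was not tested.

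The larger ratios after quantile normalization were those of Rpl10a, Rpl13a, Rpl22, Rps19, Rps27, Rps28 (98086_r_at), Rps29 and Rpsa. Rpl13a had log2 ratios of 0.56 in clone 42 over puroB and -0.49 in clone 48 over puroD. Rpl10a had 0.37 and -0.28 at 100711_at, and 0.63 and -0.41 at 161327_f_at. These 2 genes kept their signs in both pairs. Rps19 had 0.0063 and -0.46, Rps27 -0.0019 and -0.41, and Rps29 0.21 and -0.30. Rpsa was lower in both pairs, at -0.30 and -0.19, as was Rps28 at 98086_r_at, at -0.20 in each. For Rpl22 at 92857_at the ratio of puroB over puroD was 0.96, as before, and at 92856_at it was -0.72, with 0.54 and -0.25 in the pairs. None of the 28 passed limma after quantile normalization, and the smallest adjusted p was 0.906.

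**Figure D4:**
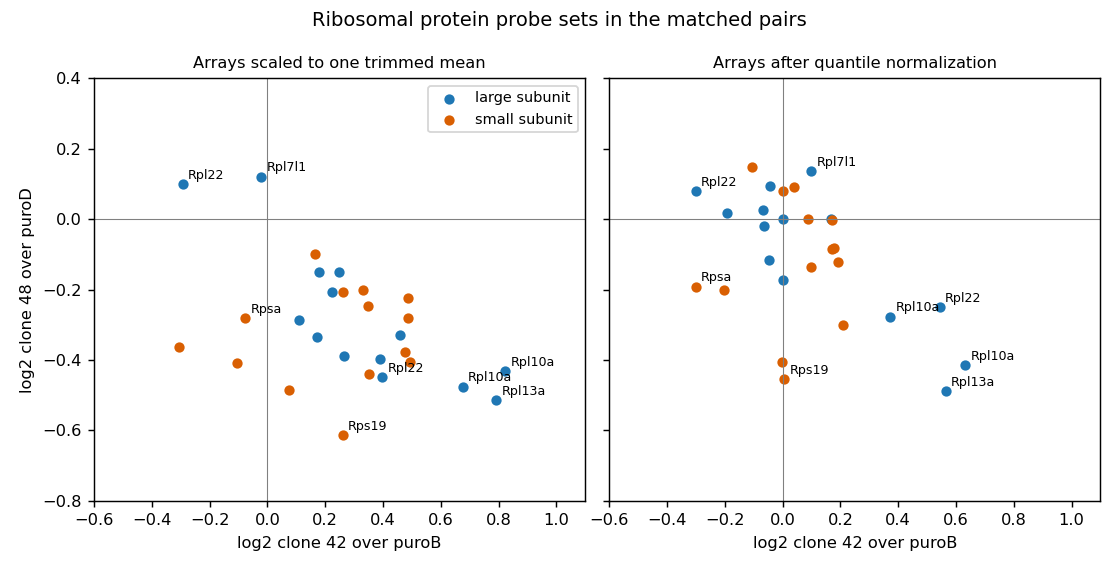
Log2 ratio of clone 48 over puroD (vertical axis) against that of clone 42 over puroB (horizontal axis) for the 28 tested probe sets, with arrays scaled to a trimmed mean (left) and after quantile normalization (right). On the left 23 points lie in the lower right part; on the right 11 do, with Rpl10a, Rpl13a and the dimmer Rpl22 probe set farthest from the centre.

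Genes that make or use ribosomes were followed as lists, each gene with its brightest tested probe set, and no list member passed limma. Ribosome biogenesis factors, which process ribosomal RNA and assemble subunits, were the list with the most genes lower in both pairs. In both pairs 21 of the 40 tested were lower and 3 higher, with median log2 ratios of -0.35 and -0.15, and of -0.33 in puroB over puroD. At an unadjusted p under 0.05 this list had 5 genes. Over the whole table, as above, these shares were 29.7%, 21.7% and 7.38%. The median log2 difference averaged over the pairs was -0.20, and clones of the same group differed by more. In clone 42 over clone 48 the median was -0.51 and 35 of the 40 were lower, against 2981 of 6419 tested probe sets. In puroB over puroD 35 were lower, against 43.9% of all. Ppan, a factor of large subunit maturation, had signals of 310 and 280 in clones 42 and 48, against 483 and 623 in puroB and puroD, and a mean log2 difference of -0.90 ± 0.30 (SE, n = 2 clones per group; limma adjusted p = 0.353). Pes1, of the same pathway, had 761 and 850, against 1198 and 1536, its mean being -0.76 ± 0.30 (limma adjusted p = 0.536). Utp14a, of small subunit processing, had -0.74 ± 0.30 (limma adjusted p = 0.563). Bysl, also of small subunit assembly, had 703 and 1718, against 589 and 666, the log2 difference averaging 0.81 ± 0.33 (limma adjusted p = 0.554). For Ppan and Pes1 both Nurr1-labelled clones were below both controls, and for Bysl both were above. The summed signals of 6 neuron markers (6622 and 5362 in clones 42 and 48, against 3132 and 3154 in puroB and puroD) and of 6 fibroblast markers (8137 and 5305, against 2204 and 3508) were also higher in both Nurr1-labelled clones. Those of 7 neural stem and progenitor markers (4403 and 4500, against 5356 and 5385) were lower in both. Those of 3 oligodendrocyte markers (216 and 250, against 333 and 275) were also lower. The sums of astrocyte, microglia and endothelial markers overlapped between the groups. Of the neuron and fibroblast lists, 3 markers each lay above the highest control not spiked in on every array (Nefl, Nefm and Tubb3, and Col1a1, Col1a2 and Col3a1). Map2, Snap25, Syp, Dcn, Lum and Thy1 did not. Of the oligodendrocyte markers, Mag and Mbp lay above that control on every array and Mog did not. The part of these cell type markers in the results was not tested.

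RNA polymerase I transcribes the ribosomal RNA genes. In both pairs 6 of the 17 tested subunits and factors were higher and 4 lower, against 21.7% and 29.7% of all tested probe sets. The medians were 0.083 and -0.16. Polr1a, the largest subunit, had signals of 248 and 428 in clones 42 and 48, against 550 and 516 in puroB and puroD, with a mean log2 difference of -0.71 ± 0.31 (limma adjusted p = 0.602). Polr1d had 0.44, Taf1a -0.30 and Polr1b -0.29. Mitochondrial ribosomal proteins, encoded in the nucleus for the separate ribosome of mitochondria, had 55 tested genes. In both pairs 17 were higher and 12 lower (medians 0.13 and -0.065), against the same 21.7% and 29.7% of all. Of these 55, 49 were lower in puroB than in puroD, against 43.9% of all, with a median of -0.42. After quantile normalization that median was -0.49. Mrps11 had a mean of -0.73, Mrpl41 0.55, Mrpl12 -0.54 and Mrpl51 -0.47, with limma adjusted p-values between 0.576 and 0.894; without puroB the value of Mrpl41 was -0.23.

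Translation factors were mixed in sign. In both pairs 4 of the 31 tested were higher and 10 lower, against 21.7% and 29.7% of all tested probe sets. Another 9 were higher in clone 42 than in puroB and lower in clone 48 than in puroD, against 23.3% of all. Those 9 include bright probe sets. The ratios in the pairs were 0.30 and -0.42 for Eef1a1, which brings aminoacyl transfer RNA to the ribosome. They were 0.36 and -0.27 for Tpt1 and 0.60 and -0.20 for Naca, a factor that binds nascent chains. The 10 lower in both pairs also include bright probe sets, with -0.30 and -0.39 for Pabpc1 and -0.041 and -0.17 for Eef2. The list medians were -0.059 and -0.077 in the pairs and -0.046 in puroB over puroD, and a difference from the ribosomal proteins was not tested. Eef1d, an elongation factor subunit, had signals of 2813 and 2131 in clones 42 and 48, against 3547 and 3423 in puroB and puroD. Its mean log2 difference was -0.51, that of Eef1b2 0.49, that of Eif4b, a helper of the initiation helicase, -0.47 and that of Eif3k 0.38. Without puroB that of Eif4b was 0.10. In both pairs 2 of the 12 tested growth control genes were higher and 3 lower (medians -0.10 and 0.051), against 21.7% and 29.7% of all. Eif4ebp1, the mTOR target that holds back cap-dependent initiation, had 1409 and 1913 in clones 42 and 48, against 1130 and 956 in puroB and puroD, the log2 difference averaging 0.66 ± 0.32 (limma adjusted p = 0.703). Rps6kb2, a kinase of the small subunit protein S6, had -0.40, Pdpk1 0.32 and Tsc2 0.24.

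**Figure D5:**
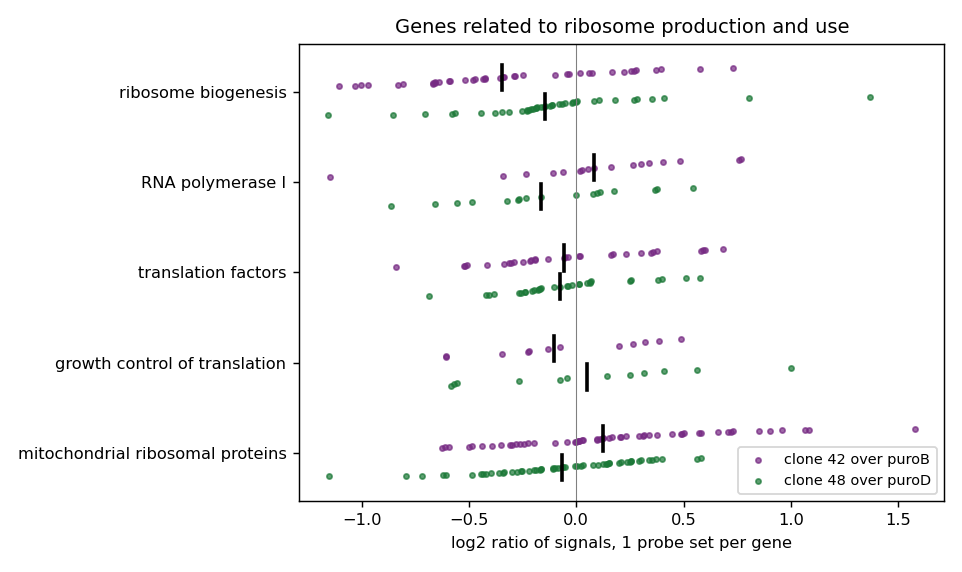
Log2 ratio of signals (horizontal axis) for 5 lists of genes that make or use ribosomes (vertical axis), 1 point per gene at its brightest tested probe set, with black bars at the medians. Upper points of a list are clone 42 over puroB and lower points clone 48 over puroD; the ribosome biogenesis medians are -0.35 and -0.15, and the other medians lie within 0.17 of 0.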

How the data were processed

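The deposited table gives each array's signal, a linear intensity, for 12469 probe sets. Per the submitters' processing notes the authors used MAS5. No label states the version, the scaling target or the detection calls. Each array was rescaled to a mean of 500 after trimming 2% at each end. A floor at the 30th percentile of all signals (40.3) was then applied, log2 was taken, and probe sets above the median of all values (145) on at least 2 of 4 arrays were tested, without 66 array controls, which left 6419. The 2 kinds of clone were set against each other in limma 3.58.1 (R 4.3.3), with a term for the matched pair and a variance trend in eBayes (Benjamini-Hochberg adjustment over all tested probe sets, threshold 0.05). The block comes from the labels, which match the clones; same-pair deviations correlated with r = 0.19 across probe sets. The fit has 1 residual degree of freedom, to which the prior adds 13.2. Ratios of single arrays have no test. With that prior, P-values and SEs rest mainly on a variance shared over probe sets of like signal. A probe set's own spread between these 4 clones, 1 array each, has little weight. The number of clones limits the precision.

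Symbols came from the platform annotation: of 12403 gene probe sets 10814 had 1 symbol, 396 several and 1193 none. RefSeq's gene table (GRCm38.p6) matched 10798 of the single symbols through Entrez identifiers and changed 0. No coordinates of probe sets were used. Promoter sequences are RefSeq's, of the same assembly. The members and lists were chosen with earlier results of these data known. The rule for named genes takes members that pass, up to 10 per direction of one sign in both pairs, the 5 highest and lowest ratios of each pair and of the controls, paralogs, members of known special role, members whose tested probe sets differ by 1 or more in mean log2 difference, and the 4 largest differences of each related list; members beyond it were named after their values were seen. Alternatives covered the scaling, floor, filter, block, clones and probe sets used; cyclic loess was added after the data were seen.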

Additional observations from a re-analysis of the deposited data

Results flagged for a closer look

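The following differences between the pairs were not tested, because each pair is 1 array against 1. The median of the 28 tested ribosomal protein probe sets had opposite signs in the matched pairs, and clone 42 over puroB exceeded clone 48 over puroD by 0.60 on the log2 scale. For large subunit probe sets the gap of the medians was 0.59, and for small subunit probe sets 0.62. Single probe sets of opposite sign with a gap of at least 1, a size chosen after the values were seen, were Rpl13a (1.30) and both probe sets of Rpl10a (1.15 at 100711_at and 1.26 at 161327_f_at).

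Ribosomal protein probe sets with several symbols are outside the members, and 35 of these 39 lay above the highest control that was not spiked in on all 4 arrays.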

How the results depend on the processing

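No member probe set was called by limma under any of the alternatives run, with adjusted p-values of at least 0.721. This includes the fit with no replicate block, whose median difference was 0.021. Leaving out 1 clone at a time gave medians from -0.17 to 0.15, in fits without the block since a pair then holds 1 array. Other scalings moved the single-pair results. With quantile normalization the median log2 ratios were 0.023 (clone 42 over puroB), -0.083 (clone 48 over puroD), -0.071 (puroB over puroD) and 0.087 (clone 42 over clone 48); in both pairs 2 members were higher and 5 lower, and 11 had the opposite signs described. With cyclic loess the first 3 ratios were 0.080, -0.22 and -0.081, with 1 higher and 6 lower in both pairs and 20 of opposite signs. Scaling to the median gave -0.12 in clone 48 over puroD, -0.40 in puroB over puroD and 0.064 in clone 42 over clone 48, with 7 higher and 1 lower in both pairs; it moved the median difference of all tested probe sets by 0.17, and relative to all of them the members had 0.32 and -0.30 in the pairs, as in the values reported. With no filter all 49 members gave 0.076, -0.21 and -0.17 in the first 3 ratios, with 1 higher and 7 lower in both pairs, since the added probe sets lie near the floor. Using 1 probe set per gene, plain probe sets or no paralogs, no floor or a filter on all 4 arrays moved no count and no median of a pair by over 1.5 times. The median difference over both pairs, 0.021 as reported, was -0.031 with cyclic loess, 0.19 with scaling to the median, 0 with no filter and 0.012 without paralogs. Of the other genes named, Eif4b ranged from -1.05 to 0.10 and Mrpl41 from -0.23 to 1.32 when 1 clone was left out. Signs of single genes were followed only where the difference exceeded its SE. Signals near the controls that were not spiked in (at most 62.6) give no usable ratio.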
